A study of Arabidopsis with 12 samples.

Results

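Seedlings of the Arabidopsis thaliana mutant wlim2a-1 that had received no elicitor were compared with wild type (WT) seedlings kept under the same conditions, gene by gene. The deposited table lists 1 expression value per gene and condition, in FPKM (fragments per kilobase of transcript, scaled to the mapped fragments of the library). Of its 27371 loci, 27161 lie on the nuclear chromosomes, and 18796 of these were compared, namely those whose FPKM reached 1 in wlim2a-1 mock or WT mock or both. The first loci inside that minimum were AT5G54950, with 1.00 FPKM in wlim2a-1 mock and a value of 0 in WT mock, and AT2G36540, with 0.714 FPKM in wlim2a-1 mock and 1.00 FPKM in WT mock. The first locus outside was AT5G09420, with 1.00 FPKM after rounding in wlim2a-1 mock and 0.632 FPKM in WT mock.

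The wlim2a-1 line was made by CRISPR-Cas9 in the Col-0 accession, carries a single-base insertion in WLIM2A that shifts the reading frame to an early stop codon, and no longer holds the Cas9 transgene. It is 1 line, so an effect of the WLIM2A lesion cannot be told apart from any other difference that this line carries. The mock groups of wlim2a-1 and WT were given water for 1 h, and the flg22 groups of both genotypes were given 1 µM flg22, a peptide of bacterial flagellin, for 1 h. All seedlings were 14 days old, grown on agar and moved to liquid medium overnight before treatment. Each condition comprised 3 samples, which the authors had combined into 1 column, so the mock columns rest on 6 of the 12 samples. The spread between samples can therefore not be recovered, no test, standard error or p-value can be given for any gene, and a single deviating sample cannot be told apart from a shift of its whole condition.

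WLIM2A belongs to the plant LIM proteins, which bind actin filaments through zinc-coordinating LIM domains and bundle them, and members of the family are also found in nuclei. Salicylic acid and jasmonate are the main defence hormones of the plant. The first drives the pathogenesis-related (PR) proteins against biotrophic pathogens, whereas the second is made from chloroplast lipids by lipoxygenases and drives responses to wounding and herbivores. Dehydrins and related COR and RD genes are induced by cold, drought and abscisic acid, and glucosinolates are the sulfur-rich defence compounds of the mustard family.

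Differences are given as log2((FPKM in wlim2a-1 mock + 1)/(FPKM in WT mock + 1)), a scale that understates the change of weakly expressed genes. A gene was called higher or lower where this value reached 1 or -1, that is a 2-fold difference. At this threshold 784 genes were higher in wlim2a-1 mock, 4.17% of the genes tested, and 111 were lower, 0.591% of them. The median difference of all tested genes was 0.01, and 17901 genes lay between the thresholds. Among the higher genes 143 reached a difference of at least 2, against 29 among the lower genes, and only 4 of those 29 had an FPKM above 0 in wlim2a-1 mock. The genes nearest to the upper threshold were AT5G54950 inside it and AT1G17360 outside it, both at 1.00 after rounding, and those nearest to the lower threshold were LCR73 (AT2G02147) inside it and AGP40 (AT3G20865) outside it, at -1.005 and -0.9996. Among 31 functional lists fixed for this work, 19 held more higher than lower members, 2 more lower than higher and 10 no called member. A median above 0 was found in 22 of them. The lists were written with earlier results of these data known, and 87.6% of all called genes were higher. The tally is therefore a description only. Counts of called members below are to be read beside the 4.17% higher and 0.591% lower over all tested genes. The plot of the paired levels shows higher genes at all expression levels and many of the lower genes on the line of 0 in wlim2a-1 mock.

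**Figure D1:**
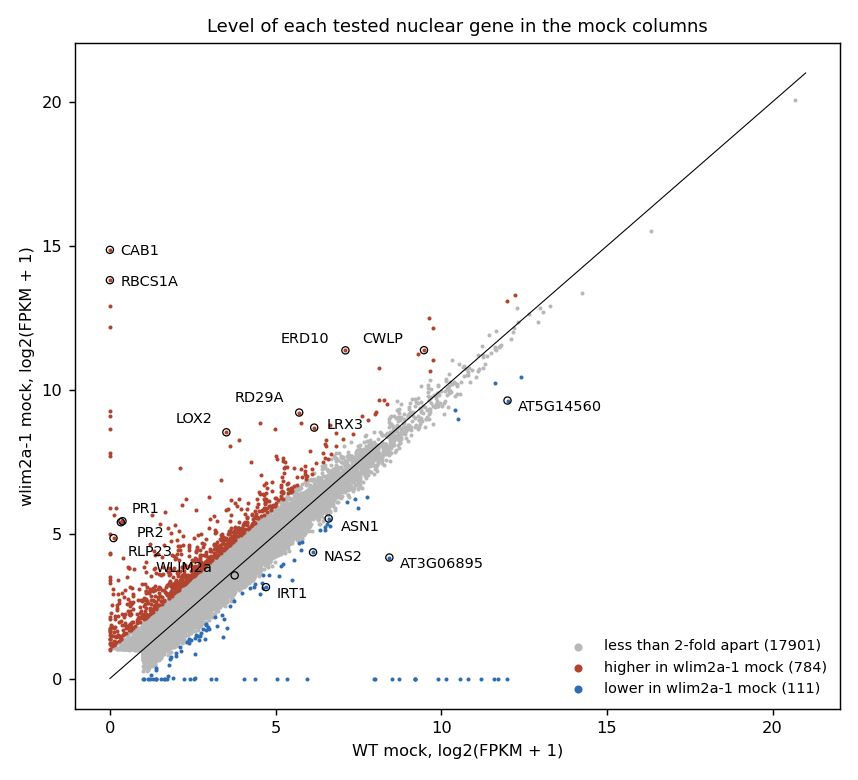
Each point is 1 of the 18796 tested nuclear genes, with its level in WT mock on the x axis and in wlim2a-1 mock on the y axis, both as log2(FPKM + 1), and the line marks equal levels. The 784 higher genes lie above the line at every level, whereas 37 of the 111 lower genes lie along the bottom edge because they were listed at 0 in wlim2a-1 mock.

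WLIM2A itself (AT2G39900) did not pass the threshold. Its level was 10.9 FPKM in wlim2a-1 mock and 12.6 FPKM in WT mock, a difference of -0.19. The lesion is a frameshift whose messenger can still be sequenced, so this value does not check the genotype. The closest relative, WLIM2b, had 46.8 FPKM in wlim2a-1 mock and 59.1 FPKM in WT mock. WLIM1 had 41.5 FPKM in wlim2a-1 mock and 54.7 FPKM in WT mock, and the pollen-type members PLIM2b and PLIM2a differed by -0.49 and -0.51. None of the 5 LIM genes tested was called, and the sixth, PLIM2c, stayed below 1 FPKM in both columns. Of 23 actin and actin-binding genes tested, 2 were higher (8.7%, against 4.17% of all tested genes) and none was lower. The median of the list was 0.07 and became -0.16 once differences were centred on genes of like length. The higher pair were the profilin PRF3, an actin monomer binder with 51.6 FPKM in wlim2a-1 mock against 15.7 FPKM in WT mock, and the formin AFH1, an actin nucleator at the plasma membrane with 58.6 FPKM in wlim2a-1 mock against 25.6 FPKM in WT mock. Under the same centring AFH1 was at 0.97 and PRF3 alone was past the threshold. The actin gene ACT8 had the lowest difference of the list, -0.52.

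Genes that respond to salicylic acid stood at the top of the ranking. Of 27 tested members of the list, 14 were higher and none was lower, with a median difference of 1.02 against 0.01 over all tested genes. The median of the list was 0.56 with a pseudocount of 5, 0.80 with no FPKM minimum and 0.99 with upper quartile scaling, all under the threshold. The 9 output genes carried most of the calls, with 8 of them higher and a median of 4.43. PCC1, a small membrane protein induced by pathogens, had 59.1 FPKM in wlim2a-1 mock and 0.138 FPKM in WT mock, the largest difference of any gene above 0 in both columns with at least 10 FPKM in the higher one. LURP1, needed for basal defence against downy mildew, followed with 49.7 FPKM in wlim2a-1 mock and 0.0794 FPKM in WT mock. Both genes were close to silent in WT mock. The marker PR1 had 41.8 FPKM in wlim2a-1 mock against 0.257 FPKM in WT mock. The β-1,3-glucanase PR2 had 42.9 FPKM in wlim2a-1 mock against 0.301 FPKM in WT mock. The thaumatin-like PR5 had 39.9 FPKM in wlim2a-1 mock against 1.83 FPKM in WT mock. Among these PR genes, the WT mock level was thus below 2 FPKM throughout, and the level in wlim2a-1 mock was near 40 FPKM. ECS1 had 263 FPKM in wlim2a-1 mock and 11.3 FPKM in WT mock, and the aspartyl protease AED1 was listed at 0 in WT mock and at 19.0 FPKM in wlim2a-1 mock.

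Regulators of the salicylic acid pathway differed less than its outputs. ACD6, an ankyrin membrane protein that promotes cell death and salicylic acid signaling, had a difference of 2.93, and SARD1, a transcription factor for salicylic acid synthesis, had 4.15 FPKM in wlim2a-1 mock against 0.168 FPKM in WT mock. The factors WRKY70 and WRKY54 differed by 1.49 and 1.27, the glutaredoxin GRX480 by 1.46 and the NPR1-interacting protein NIMIN1 by 1.2. The receptor and coactivator genes were closer to WT. NPR1, the coactivator, had 25.84 FPKM in wlim2a-1 mock and 15.95 FPKM in WT mock. None of the 4 tested genes of synthesis and turnover was called, and ICS1, which makes most pathogen-induced salicylic acid, had 1.38 FPKM in wlim2a-1 mock and 0.825 FPKM in WT mock. The lowest difference of the list was that of the receptor gene NPR4, 0.25, so all 27 members lay above 0. The senescence-associated dehydrogenase gene SAG13 passed the threshold narrowly with 1.02.

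After flg22, PR1, PR2 and PCC1 had lower levels in wlim2a-1 than in its mock column and stood above WT flg22. PR1 had 18.24 FPKM in wlim2a-1 flg22 and 0.0857 FPKM in WT flg22. PR2 had 1.65 FPKM in wlim2a-1 flg22 and 0.479 FPKM in WT flg22, and PCC1 had 2.67 FPKM in wlim2a-1 flg22 and 0.120 FPKM in WT flg22. The high levels of PR2 and PCC1 were thus those of wlim2a-1 mock alone among the 4 columns, whereas that of PR1 was shared by both wlim2a-1 columns. Over the 27 members the median difference in the flg22 pair was 0.41.

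The jasmonate list held 12 higher genes of 22 tested and no lower gene, with a median of 1.38 that became 0.83 with a pseudocount of 5. Synthesis genes led it, with 6 of 8 higher. LOX2, the chloroplast lipoxygenase that starts bulk jasmonate production, had 371 FPKM in wlim2a-1 mock and 10.4 FPKM in WT mock, 35.5-fold higher. The lipoxygenases LOX4 and LOX3 had 7.99 and 6.76 FPKM in wlim2a-1 mock against 0.514 and 1.15 FPKM in WT mock. The allene oxide cyclase genes AOC2 and AOC1 and the allene oxide synthase gene AOS differed by 2.23, 1.77 and 1.25. AOC1 and AOC2 are close copies, so reads may have been split between them. OPR3, the peroxisomal reductase of the pathway, lay just under the threshold with 0.84, while OPCL1, the CoA ligase that follows it and was added after its value was seen, had 35.9 FPKM in wlim2a-1 mock and 6.89 FPKM in WT mock.

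Among the outputs of jasmonate, CORI3 had 24.3 FPKM in wlim2a-1 mock against 1.33 FPKM in WT mock and TAT3, a tyrosine aminotransferase, had 12.8 FPKM in wlim2a-1 mock against 0.642 FPKM in WT mock. The acetyltransferase NATA1 differed by 2.22. The repressor genes JAZ1, JAZ5 and JAZ6 were also higher, at 1.73, 1.71 and 1.51. By contrast, the storage proteins VSP1 and VSP2, which are textbook jasmonate markers, had 17.59 and 20.5 FPKM in wlim2a-1 mock and 17.89 and 20.1 FPKM in WT mock. MYC2, the central activator, was at 0.19. The list therefore divided into lipoxygenase and cyclase genes far above WT and vegetative storage protein genes level with it. The hydroxylase CYP94C1, which turns over the active hormone, was higher with 2.40, and the arginase ARGAH2 with 1.96, both named after their values were seen.

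Defensins of the PDF1 group, small antimicrobial peptides driven by jasmonate and ethylene together, were higher as well. PDF1.2 had 13.7 FPKM in wlim2a-1 mock and 1.02 FPKM in WT mock, PDF1.3 differed by 1.61 and PDF1.2b by 1.37. These genes are near-identical, so the values of single copies are uncertain, and with a pseudocount of 5 the list of 7 kept 1 higher gene. The basic chitinase HCHIB, PR4 and the osmotin OSM34, which share that hormonal control, had differences of -0.18, -0.24 and -0.48. Of 11 ethylene genes, only the kinase CTR1, the repressor of the pathway, was called, with 28.3 FPKM in wlim2a-1 mock against 11.3 FPKM in WT mock, and the median was 0.13. Centred on genes of like length, CTR1 was at 0.98 and no ethylene gene was past the threshold.

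**Figure D2:**
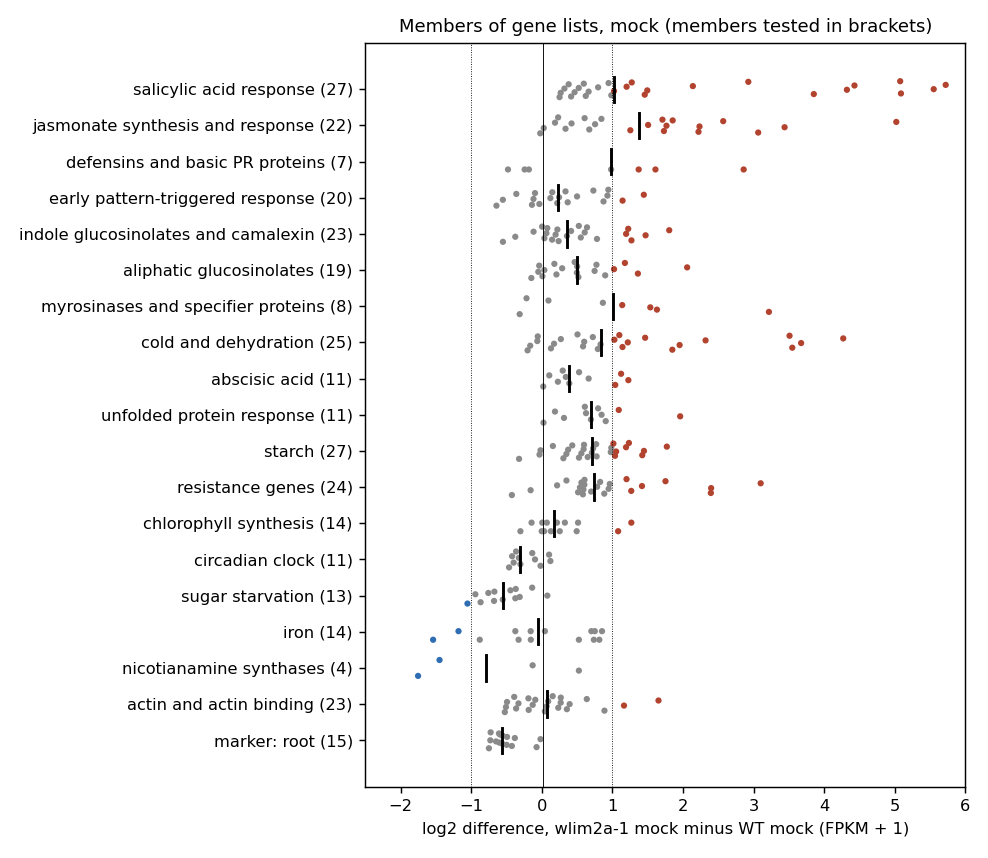
Each point is 1 tested member of a gene list at its log2 difference between wlim2a-1 mock and WT mock on FPKM + 1, red where at least 2-fold higher and blue where at least 2-fold lower, with black bars for list medians and a thin line for the median of all genes. The red points reach 5.72 in the salicylic acid list, and the 15 root markers all lie below 0.

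Receptor genes at the cell surface formed a further block. Among 28 tested cysteine-rich receptor kinases, which are induced by pathogens and reactive oxygen, 12 were higher and none was lower, with a median of 0.88. CRK14 had 9.70 FPKM in wlim2a-1 mock and 0.176 FPKM in WT mock, and CRK6 had 7.54 FPKM in wlim2a-1 mock and 0.0592 FPKM in WT mock. CRK4 and CRK41 differed by 2.04 and 1.95. Of these 12 genes, CRK6, CRK7, CRK10, CRK11 and CRK12 stood side by side with EP1 in the order of tested genes, the longest run of neighbours with the same call, and copies in such an array may share reads. Many of these kinases were weakly expressed, and 4 of the 28 were past the threshold with a pseudocount of 5. Wall-associated kinases, which bind pectin and its fragments, had 5 higher members of 7 and a median of 1.13, which became 0.63 with a pseudocount of 5 and 0.47 with no FPKM minimum. WAK1 had 50.5 FPKM in wlim2a-1 mock and 1.39 FPKM in WT mock, and its neighbour WAK2 had 48.2 FPKM in wlim2a-1 mock and 7.86 FPKM in WT mock. WAK3 (1.13), WAKL2 (1.15) and WAKL6 (1.01) were called by smaller margins, and 2 of the 7 were past the threshold with a pseudocount of 5.

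Receptor-like proteins, which lack a kinase domain, were higher in 6 of 38 cases (15.8%, against 4.17% of all tested genes). The family median was 0.17. RLP23, the receptor of a peptide from NLP toxins, had 28.2 FPKM in wlim2a-1 mock and 0.0785 FPKM in WT mock, and it had 1.38 FPKM in wlim2a-1 flg22 and 0.189 FPKM in WT flg22. RLP32, another immune receptor, had 23.5 FPKM in wlim2a-1 mock and 3.20 FPKM in WT mock. The kinase SOBIR1, with which such proteins form complexes, had 81.9 FPKM in wlim2a-1 mock and 24.1 FPKM in WT mock. The coreceptor kinase SERK4 differed by 2.21 and the chitin receptor LYK5 by 1.63, and these 3 genes were named after their values were seen. In the list of early responses to microbial patterns, 2 of 20 genes were higher and the median was 0.23. One was FLS2, the receptor of flg22 itself, with 31.3 FPKM in wlim2a-1 mock and 10.9 FPKM in WT mock, and 21.3 FPKM in wlim2a-1 flg22 and 13.9 FPKM in WT flg22. The second was WRKY33, a regulator of camalexin synthesis, with 24.9 FPKM in wlim2a-1 mock and 10.7 FPKM in WT mock. BAK1, the coreceptor of FLS2, was at -0.12 and ERF104 had the lowest value, -0.64. Receptor genes and early target genes of flg22 thus did not move as 1 block.

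Intracellular receptors of the NLR class, which detect pathogen effectors, were gathered in a list after values had been seen, and 7 of its 24 resistance genes were higher, none lower. HR4, a homolog of the mildew resistance protein RPW8, had 469 FPKM in wlim2a-1 mock and 53.8 FPKM in WT mock. ZAR1, which assembles into a membrane resistosome, had 197 FPKM in wlim2a-1 mock and 36.7 FPKM in WT mock, and WRR4, a white rust resistance gene, had 23.5 FPKM in wlim2a-1 mock and 3.65 FPKM in WT mock. RLM3, RPP8, RPP4 and LAZ5 differed by 1.75, 1.42, 1.27 and 1.2. In flg22, ZAR1 had 96.6 FPKM in wlim2a-1 and 78.4 FPKM in WT, so its low value was that of WT mock. The list median was 0.74, and its genes are long, with a median length of 4448 bp. Centred on genes of like length, 5 of the 24 were past the threshold and the median was 0.52.

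Calcium-dependent and CBL-interacting kinases, which relay calcium signals, had 8 higher members of 41 (19.5%, against 4.17% of all tested genes). The family median was 0.34. CIPK9, a kinase of potassium homeostasis, had 19.1 FPKM in wlim2a-1 mock and 1.71 FPKM in WT mock. CPK29 had 17.56 FPKM in wlim2a-1 mock and 2.00 FPKM in WT mock, and CPK28, a kinase that limits immune signaling, differed by 1.88. With a pseudocount of 5, 4 of the 41 were past the threshold. The calmodulin-like gene TCH3, known for induction by touch, had 441 FPKM in wlim2a-1 mock and 99.8 FPKM in WT mock, and more than that after flg22 in both genotypes, with 1066 FPKM in wlim2a-1 and 1096 FPKM in WT. Transcription factor families differed in their share of higher genes, which was 4.17% over all tested genes. WRKY factors had 7 higher of 46 (15.2%), among them WRKY18 at 1.505, with a family median of 0.01 that fell to -0.06 under upper quartile scaling. NAC factors had 3 higher of 48 (6.25%), led by NAC036 at 2.23. ERF and DREB factors had 1 of 46 (2.17%), which was ERF2 at 1.57, and MYB factors 1 of 67 (1.49%), which was MYB47 at 1.64. These counts became 2 WRKY, 1 NAC, 1 ERF or DREB and 0 MYB factors with a pseudocount of 5.

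**Figure D3:**
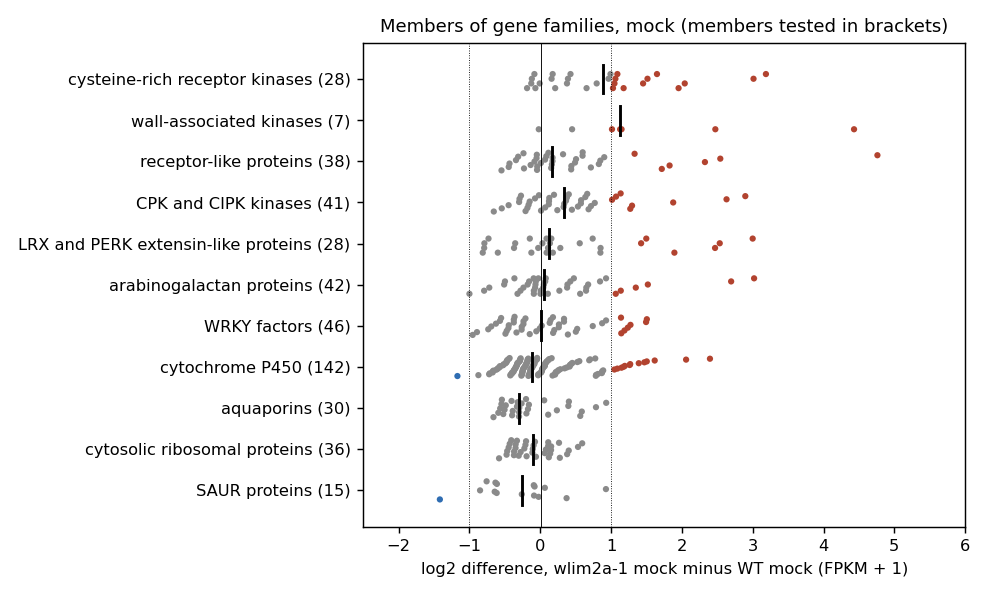
Points are tested members of gene families at their log2 difference between wlim2a-1 mock and WT mock on FPKM + 1, red where at least 2-fold higher and blue where at least 2-fold lower, with black bars for family medians. Wall-associated kinases (median 1.13) and cysteine-rich receptor kinases (0.88) stand to the right. The medians of the other families drawn lie between -0.30 (aquaporins) and 0.34 (calcium-dependent and CBL-interacting kinases). No member was called among the 30 aquaporins and the 36 cytosolic ribosomal proteins identified by gene symbol. Ribosomal protein genes without such a symbol are not included.

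Genes of cell wall proteins included several abundant higher transcripts. LRX3, a leucine-rich repeat extensin that binds RALF peptides in the wall, had 415 FPKM in wlim2a-1 mock and 70.8 FPKM in WT mock, while the flg22 columns had 77.4 FPKM in wlim2a-1 and 99.4 FPKM in WT. LRX2 had 12.8 FPKM in wlim2a-1 mock and 1.49 FPKM in WT mock, and the proline-rich kinase PERK15 had 23.8 FPKM in wlim2a-1 mock and 2.103 FPKM in WT mock. In all, 6 of 28 genes of these extensin-like groups, defined after values were seen, were higher and none lower. Arabinogalactan proteins, glycoproteins at the outer face of the plasma membrane, had 6 higher of 42 (14.3%, against 4.17% of all tested genes). AGP18 had 207 FPKM in wlim2a-1 mock and 31.1 FPKM in WT mock, AGP5 had 33.3 FPKM in wlim2a-1 mock and 3.23 FPKM in WT mock, and AGP9, FLA16, FLA13 and AGP19 differed by 1.52, 1.35, 1.14 and 1.07. The median of this family was 0.05 and turned to -0.04 under upper quartile scaling, so the family as a whole was level.

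CWLP, a cell wall-plasma membrane linker protein, was 1 of the 10 most abundant higher genes, with 2676 FPKM in wlim2a-1 mock and 713 FPKM in WT mock. The pectin methylesterase gene ATPMEPCRB, among the 20 largest rises, had 53.4 FPKM in wlim2a-1 mock and 2.16 FPKM in WT mock. Other wall genes named after their values were seen were the proline-rich protein PRP4 (547 FPKM in wlim2a-1 mock, 195 FPKM in WT mock), GAE6, an epimerase that supplies galacturonic acid for pectin (364 FPKM in wlim2a-1 mock, 113 FPKM in WT mock), and the expansin-like EXLA1 (83.4 FPKM in wlim2a-1 mock, 22.3 FPKM in WT mock). Each of these 3 genes was below its WT flg22 value in wlim2a-1 flg22. Pectin methylesterases with a PME symbol had no called member of 12, and cellulose synthases none of 5.

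Cold and dehydration genes had 12 higher members of 25 and none lower, with a median of 0.83. The effectors carried these calls, with 7 of 11 dehydrins and LEA proteins higher. ERD10, a dehydrin that protects membranes and proteins, had 2664 FPKM in wlim2a-1 mock and 137 FPKM in WT mock, 19.4-fold higher. RAB18, a dehydrin under abscisic acid control, had 118 FPKM in wlim2a-1 mock and 9.14 FPKM in WT mock, and COR47 had 2451 FPKM in wlim2a-1 mock and 633 FPKM in WT mock. ERD7 had 402 FPKM in wlim2a-1 mock against 30.6 FPKM in WT mock, and RD29A had 597 FPKM in wlim2a-1 mock against 51.5 FPKM in WT mock. COR15A and COR15B, chloroplast proteins that protect against freezing and are near copies, together had 424 FPKM in wlim2a-1 mock and 102 FPKM in WT mock. RD20, KIN1, RD22, LEA14 and RD29B were called at 1.464, 1.218, 1.143, 1.098 and 1.028. The 3 tested regulators were level, and DREB2A had the lowest value, -0.20.

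After flg22 the median difference of the cold and dehydration list was 0.16. ERD10 had 113 FPKM in wlim2a-1 flg22 and 177 FPKM in WT flg22, ERD7 had 33.6 FPKM in wlim2a-1 flg22 and 36.1 FPKM in WT flg22, and RD29A had 33.56 FPKM in wlim2a-1 flg22 and 35.001 FPKM in WT flg22. In these 3 genes wlim2a-1 mock was the single high column of the 4. RAB18 was different, with 38.8 FPKM in wlim2a-1 flg22 and 5.46 FPKM in WT flg22. Of 11 abscisic acid genes, the phosphatase genes HAI2 and HAI1 and the synthesis gene NCED3 were higher, with 1.23, 1.04 and 1.12, and the median was 0.39. ABI5 was level at 0.02. All 3 calls rested on levels below 5 FPKM, and none of the 3 was called with a pseudocount of 5.

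**Figure D4:**
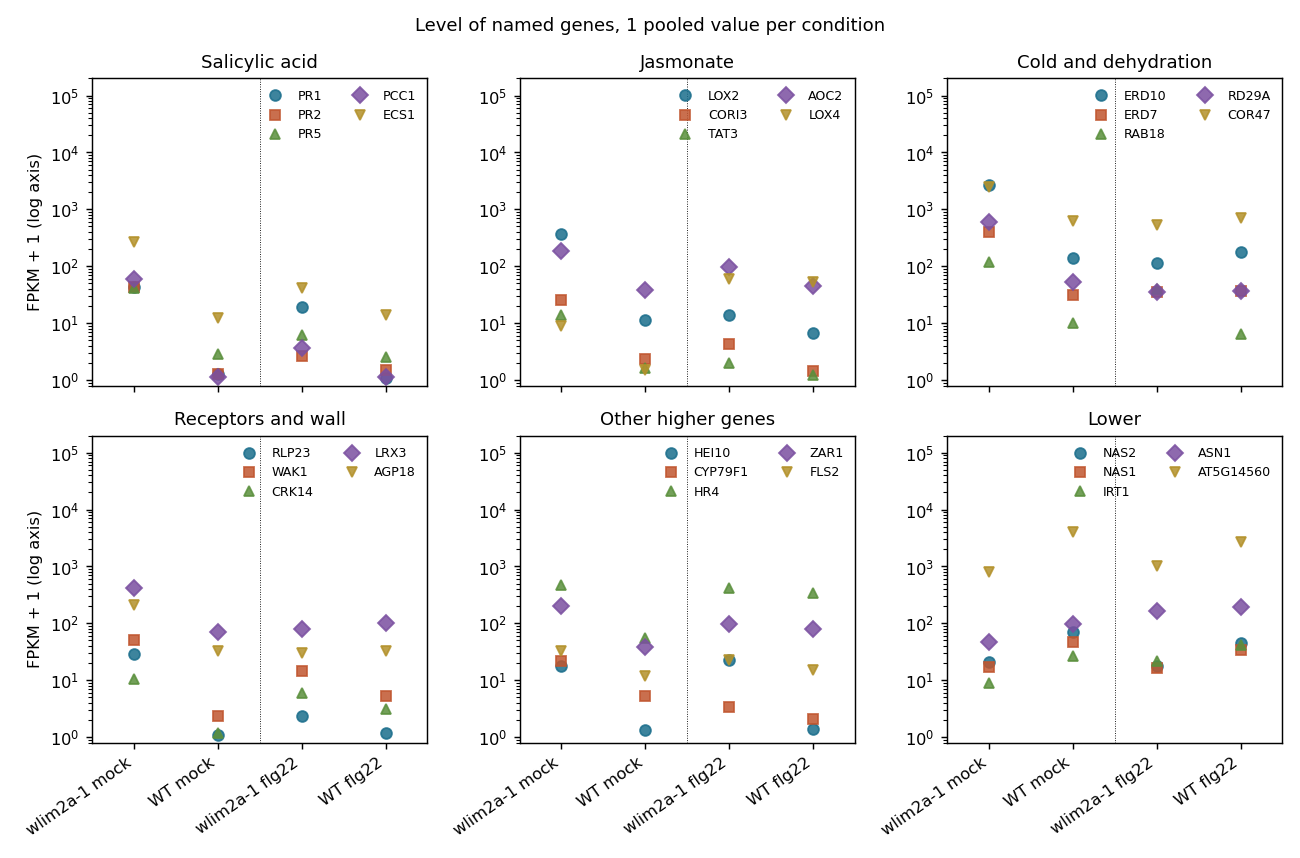
Levels of 30 named genes as FPKM + 1 on a log axis, with 1 pooled value per condition in the order wlim2a-1 mock, WT mock, wlim2a-1 flg22 and WT flg22, and no error bars because replicates were combined. ERD10, RD29A, LRX3 and AGP18 are high in wlim2a-1 mock alone, HEI10 is high in both wlim2a-1 columns, and NAS1 and NAS2 are low in both wlim2a-1 columns.

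Glucosinolate genes were called in smaller numbers. In the aliphatic branch 4 of 19 were higher (21.1%, against 4.17% of all tested genes) with a median of 0.50. CYP79F1, which converts chain-elongated methionine, had 20.7 FPKM in wlim2a-1 mock and 4.21 FPKM in WT mock, whereas its close relative CYP79F2 had 15.7 FPKM in wlim2a-1 mock and 16.3 FPKM in WT mock. The monooxygenase FMO_GS-OX1, CYP83A1 and the isomerase subunit IPMI2 differed by 1.36, 1.18 and 1.02. MAM3 had the lowest value, -0.15. In the indole and camalexin branch 5 of 23 were higher (21.7%) with a median of 0.36. They were the glutathione transferase GSTF6 (1.80), the camalexin enzymes CYP71A13 (1.47) and CYP71A12 (1.27), the exporter PEN3 (1.22) and CYP81F2 (1.19). CYP71A13 and CYP71A12 had 2.03 and 2.79 FPKM in wlim2a-1 mock and 0.0921 and 0.569 FPKM in WT mock. With a pseudocount of 5, CYP71A13, CYP71A12 and CYP81F2 were at 0.46, 0.48 and 0.77. Under that setting 2 genes of each branch were past the threshold. PEN3 was at 0.82 once centred on genes of like length. IGMT1, a methyltransferase of the same branch, was lowest at -0.55. Myrosinases and their partners, which break glucosinolates down upon wounding, had 4 higher genes of 8. The myrosinases TGG1 and TGG2 had 802 and 280 FPKM in wlim2a-1 mock and 276 and 89.8 FPKM in WT mock, and the binding protein MBP1 had 32.3 FPKM in wlim2a-1 mock and 2.58 FPKM in WT mock. ESP, the epithiospecifier protein, differed by 1.14 and NSP5 by -0.31.

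Genes of starch metabolism were grouped after values had been seen. Of 27 tested, 8 were higher (29.6%, against 4.17% of all tested genes) and none was lower, with a median of 0.71. They included the plastid amylase AMY3 (83.4 FPKM in wlim2a-1 mock, 23.7 FPKM in WT mock), the granule-initiating synthase SS4 (28.6 FPKM in wlim2a-1 mock, 9.85 FPKM in WT mock), the glucan phosphorylases PHS1 and PHS2 (1.23 and 1.42 in log2 difference) and the glucan water dikinase SEX1 (1.19). Enzymes of synthesis (2 of 11) and of breakdown (5 of 14) were both represented. The median length of these genes was 4946 bp, and 4 of the 27 were past the threshold once differences were centred on genes of like length, with a median of 0.46. In the flg22 pair AMY3 had 23.598 FPKM in wlim2a-1 and 21.766 FPKM in WT, and the list median was 0.08.

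Nuclear genes of the photosynthetic machinery were level, with a median of -0.04 over 41 photosystem genes and 0.06 over 16 Calvin cycle genes, signs that changed under some scalings. Each list held 1 called gene. CAB1, a light-harvesting protein, was listed at 29857 FPKM in wlim2a-1 mock and at 0 in WT mock, and RBCS1A, a small subunit of Rubisco, was listed at 14401 FPKM in wlim2a-1 mock and at 0 in WT mock. Both were also listed at 0 in WT flg22, although every green cell uses them and both have close copies. CAB2 and CAB3 had 5250 and 7420 FPKM in wlim2a-1 mock and 7697 and 8121 FPKM in WT mock, and the summed level of CAB1 to CAB3 was 42527 FPKM in wlim2a-1 mock and 15819 FPKM in WT mock. The values of CAB1 and RBCS1A are therefore not read as expression differences. In chlorophyll synthesis the reductase PORA (1.27, below 2 FPKM in both columns) and the magnesium chelatase subunit CHLD (1.08) were higher of 14 genes, and CHLM was lowest at -0.30. Neither call held with a pseudocount of 5, which gave 0.40 for PORA and 0.95 for CHLD. PnsB1, a subunit of the chloroplast NDH complex named after its value was seen, had 104 FPKM in wlim2a-1 mock and 24.2 FPKM in WT mock.

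Among stress genes, 2 of 11 in the unfolded protein response, 2 of 7 in the scavenging of reactive oxygen and 2 of 5 in the mitochondrial stress list were higher and none was lower, with medians of 0.70, 0.32 and 0.94. With a pseudocount of 5, 1 gene of each list was past the threshold. In the unfolded protein response, BIP3 (1.96) and the HSP90 of the endoplasmic reticulum SHD (92.8 FPKM in wlim2a-1 mock, 43.1 FPKM in WT mock) were higher, the second of them at 0.90 once centred on genes of like length, while the transcription factor BZIP60 was level at 0.02. No heat shock gene of 9 was called. Among the scavengers, the copper/zinc superoxide dismutases CSD2 (56.3 FPKM in wlim2a-1 mock, 10.3 FPKM in WT mock) and CSD1 (12.4 FPKM in wlim2a-1 mock, 5.22 FPKM in WT mock) were higher, whereas the iron-dependent FSD1 was at -0.44. BCS1, an ATPase gene that marks mitochondrial stress, had 28.3 FPKM in wlim2a-1 mock and 4.84 FPKM in WT mock, and UGT74E2 differed by 1.13, whereas the alternative oxidase AOX1A was under the threshold at 0.68. Single calls came from the hypoxia list (the haemoglobin HB1, 1.099) and the sulfur list (SDI1, 1.11), and both were lost with a pseudocount of 5, at 0.68 and 0.35. Lists for light, clock, senescence, nitrate, phosphate, flavonoid, auxin, cell cycle and cuticle genes held no called gene, with medians between -0.30 for the clock and 0.21 for senescence.

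Several of the 20 largest rises fell in no list. HEI10, a meiotic crossover protein, had 17.0 FPKM in wlim2a-1 mock and 0.314 FPKM in WT mock, and likewise 21.3 FPKM in wlim2a-1 flg22 and 0.416 FPKM in WT flg22. It thus followed the genotype in both treatments, unlike most of the genes above. The unnamed loci AT2G25510 and AT5G42530 had 309.5 and 461 FPKM in wlim2a-1 mock and 14.0 and 22.2 FPKM in WT mock. AT1G35710 had 74.4 FPKM in wlim2a-1 mock and 3.96 FPKM in WT mock. The neighbours AT5G54710 and AT5G54720 had 63.8 and 156 FPKM in wlim2a-1 mock and 3.54 and 3.37 FPKM in WT mock, and after flg22 both genotypes were above 50 FPKM.

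The 10 most abundant higher genes also included PSBTN, a small photosystem II subunit with 10018 FPKM in wlim2a-1 mock and 4804 FPKM in WT mock, and the unnamed loci AT1G53541, AT2G11271 and AT4G30097 at 8705, 5800 and 4584 FPKM in wlim2a-1 mock and 4088, 788 and 854 FPKM in WT mock. Upper quartile scaling put PSBTN at 0.97, under the threshold. In the flg22 pair PSBTN, AT2G11271 and AT4G30097 were at -0.454, -1.625 and -1.959, whereas AT1G53541 was at 1.186. AT2G13422, AT5G20447 and AT1G35183 were listed at 7801, 4685 and 626 FPKM in wlim2a-1 mock and at 0 in WT mock, the highest such loci after CAB1 and RBCS1A. Altogether 34 genes were listed at 0 in 1 mock column and at 10 FPKM or more in the other, 14 of them at 0 in WT mock and 20 at 0 in wlim2a-1 mock. The highest of the second kind were AT1G74929, AT5G23989, AT3G51642, AT2G28426 and AT4G31441, listed at 0 in wlim2a-1 mock and at 4016, 3341, 3076, 2371 and 1800 FPKM in WT mock. None of the 20 carries a gene symbol. After flg22, 10 of the 14 were also at 0 in WT and 15 of the 20 in wlim2a-1. AT5G20447 and AT1G35183 were at 0 in both flg22 columns. AT2G28426 had 1861 FPKM in wlim2a-1 flg22 and 0 in WT flg22, whereas AT1G74929 had 0 and 4102 FPKM in the same order. Whether such a 0 reflects expression or its estimate was not tested. The loci named in this paragraph as listed at 0 are therefore not read as expression differences.

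Of the 111 lower genes, 18 had a symbol in RefSeq (16.2%), against 394 of the 784 higher genes (50.3%) and 43.5% of all tested genes. Metal homeostasis genes were among the named lower genes. NAS2 and NAS1, which make the metal chelator nicotianamine, had 19.8 and 16.1 FPKM in wlim2a-1 mock and 69.1 and 45.8 FPKM in WT mock, 3.49-fold and 2.84-fold lower. After flg22, NAS2 had 17.0 FPKM in wlim2a-1 and 44.6 FPKM in WT, and NAS1 had 15.6 FPKM in wlim2a-1 and 32.6 FPKM in WT. The order of the genotypes was therefore the same in both treatments. NAS3 (-0.13) and NAS4 (0.52) were not called, and this group of 4 was put together after values had been seen. IRT1, the main iron importer of roots, had 7.999 FPKM in wlim2a-1 mock and 25.19 FPKM in WT mock, and 20.99 FPKM in wlim2a-1 flg22 and 40.9 FPKM in WT flg22. The ferric reductase FRO2 had 1.63 FPKM in wlim2a-1 mock and 4.96 FPKM in WT mock. The other 12 tested iron genes were not called and the list median was -0.06, a sign that changed under 2 alternatives, with the factor BHLH038 highest at 0.85. The copper transporter COPT4 had 2.28 FPKM in wlim2a-1 mock and 6.07 FPKM in WT mock, and COPT2 was not called at -0.95. In the copper list of 14 genes, put together after values had been seen, CSD1 and CSD2 were higher, COPT4 was lower and the median was -0.33.

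Root marker genes moved with these uptake genes. All 15 tested root markers lay below 0, with a median of -0.56, a range of -0.75 for CASP1 of the Casparian strip to -0.02 for SHR, and a summed level of 379 FPKM in wlim2a-1 mock and 535 FPKM in WT mock. None was called, and ESB1 was below 1 FPKM in both columns. A lower share of root tissue and less RNA per root cell cannot be told apart in whole seedlings, and the part of either in the lower metal uptake genes was not tested. In the flg22 pair the root marker median was -0.19. Guard cell markers lay the other way in mock, with 7 of 8 above 0 and a median of 0.50. They summed to 162 FPKM in wlim2a-1 mock and 103 FPKM in WT mock. Their median in the flg22 pair was -0.28, opposite in sign to that in mock. Phloem markers summed to 229 FPKM in wlim2a-1 mock and 240.3 FPKM in WT mock, and 4 tested shoot meristem and leaf markers to 70.4 FPKM in wlim2a-1 mock and 83.3 FPKM in WT mock. No marker of seeds (10) or flowers (6) reached 1 FPKM in either mock column, and the seed genes CRU3, SESA1, SESA3, OLEO1 and OLEO2 were at 0 in both.

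Sugar starvation genes had the lowest median of the 31 functional lists fixed for this work, -0.55 over 13 genes with 12 of them below 0. ASN1, an asparagine synthetase induced in darkness, had 45.8 FPKM in wlim2a-1 mock and 96.2 FPKM in WT mock and was the called member, narrowly at -1.05. This call was lost with a pseudocount of 5 (-0.99) and after scaling by the genes ACT2 and UBQ10 (-0.95). SEN1 had 167 FPKM in wlim2a-1 mock and 305 FPKM in WT mock, and BCAT2, which degrades branched-chain amino acids, had 10.7 FPKM in wlim2a-1 mock and 21.4 FPKM in WT mock. After flg22 ASN1 had 167 FPKM in wlim2a-1 and 190 FPKM in WT, above both mock columns. The remaining named lower genes, chosen after their values were seen, were mostly weakly expressed, among them the auxin-induced SAUR24 (2.55 FPKM in wlim2a-1 mock, 8.48 FPKM in WT mock), the cytochrome CYP78A5 of organ growth (1.99 FPKM in wlim2a-1 mock, 5.72 FPKM in WT mock) and the floral glutaredoxin ROXY1 (1.84 FPKM in wlim2a-1 mock, 5.07 FPKM in WT mock). MOP10 (AT5G05500), among the 20 largest falls, had 13.9 FPKM in wlim2a-1 mock and 34.9 FPKM in WT mock.

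The largest falls were loci without a symbol. AT3G06895 had 17.3 FPKM in wlim2a-1 mock and 345 FPKM in WT mock, but 383 FPKM in wlim2a-1 flg22 and 80.7 FPKM in WT flg22. AT5G14560 had 797 FPKM in wlim2a-1 mock and 4097 FPKM in WT mock, and it was also lower after flg22, with 1008 FPKM in wlim2a-1 and 2688 FPKM in WT. AT5G64395 and AT3G01319 had 1393 and 1205 FPKM in wlim2a-1 mock and 5467 and 3122 FPKM in WT mock, while WT flg22 was listed at 0 for both. Of the 16 loci without a symbol among the 20 largest falls, 8 were also below 0 after flg22 and 8 were above 0. The neighbouring loci AT4G22485, AT4G22490 and AT4G22505 formed 1 of 2 runs of at least 3 adjacent lower genes. AT4G22490 had 38.1 FPKM in wlim2a-1 mock and 98.2 FPKM in WT mock, and the order was reversed after flg22 with 115 FPKM in wlim2a-1 and 37.2 FPKM in WT. AT4G22517 and AT4G22520 close by behaved alike, at -1.32 and -1.47 in mock and 1.86 and 1.44 after flg22. The other 8 unnamed loci of the 20 largest falls lay between -2.10 (AT3G27027) and -1.27 (AT5G01881).

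Gene length moved with the difference. With 18745 tested genes placed in 10 groups by their length in RefSeq TAIR10.1, the median difference in mock was -0.23 in the shortest group, with a median length of 872 bp, and 0.33 in the longest, with 5640 bp, and it increased from each group to the next. In the flg22 pair the shortest group had -0.11 and the longest 0.06. Genes called higher made up 8.27% of the longest group and 6.08% of the shortest, against 2.24% of the third group. Of the 106 lower genes with a length, 87 were in the shortest group (82.1%). Long genes among the higher ones, named after their values were seen, included the chromatin remodeler BRM, the ubiquitin ligase UPL2 and the COP1-interacting protein CIP1, with 51.2, 39.1 and 161 FPKM in wlim2a-1 mock and 18.6, 16.7 and 39.3 FPKM in WT mock. The part of gene length in the calls was not tested beyond centring on genes of like length, under which 701 genes were higher and 79 lower. The salicylic acid (15 of 27), jasmonate (12 of 22) and cold (13 of 25) lists kept their counts within 1. Cysteine-rich receptor kinases went from 12 to 9 higher of 28 and calcium-dependent and CBL-interacting kinases from 8 to 6 of 41. The resistance list went from 7 to 5 of 24 and the starch list from 8 to 4 of 27.

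**Figure D5:**
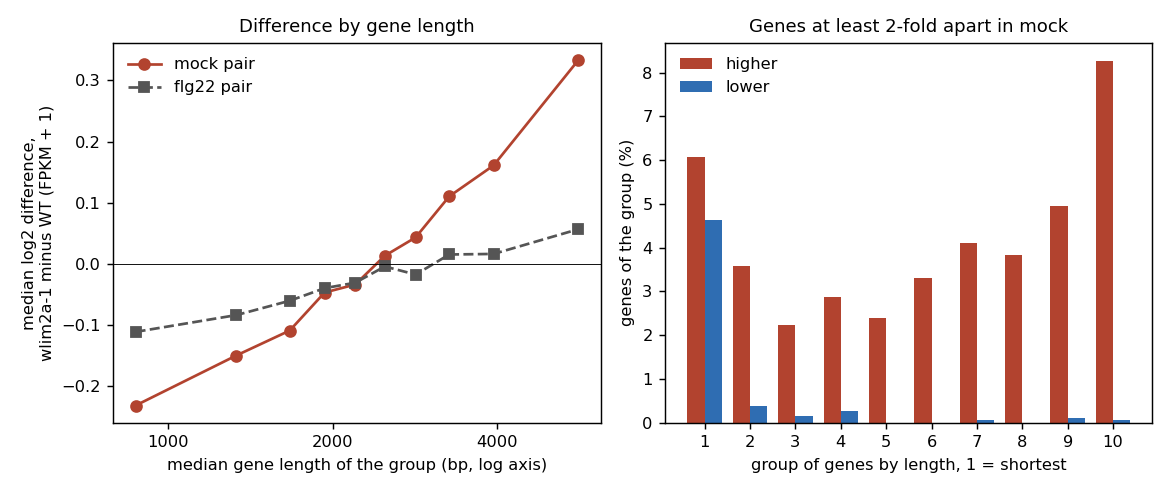
Left, median log2 difference on FPKM + 1, wlim2a-1 over WT, for 10 groups of genes by length (x axis in bp, log scale), in the mock pair and in the flg22 pair. Right, share of each group's genes that were at least 2-fold higher or lower in wlim2a-1 mock. The mock line runs from -0.23 to 0.33, and 4.64% of the shortest genes are lower.

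No single chromosome held a concentration of called genes by share. Higher genes made up between 3.51% of tested genes on chromosome 3 and 4.6% on chromosome 2, and lower genes between 0.386% on chromosome 1 and 0.740% on chromosome 3. Of the higher genes, 134 (17.2%) had a higher gene as next tested neighbour, and 73 of 18740 neighbouring pairs were higher in both members. Over all tested genes 4.17% were higher, and the share of neighbours that this alone would give was not computed. Runs of at least 3 adjacent higher genes numbered 9. These included the CRK array, WAK1 with WAK2 and WAK3, and RD29A with RD29B and CYP96A4. By level, genes were called higher in 2.39% of cases at 1 to 5 FPKM and in 7.41% of cases at 100 FPKM or more, and called lower in 0.608% and 2.2% of cases.

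Few of these differences stood in the flg22 pair, whose samples are separate from those of the mock pair. Of the 784 genes higher in wlim2a-1 mock, 57 passed the 2-fold threshold upward after flg22 as well (7.27%, against 0.724% of all tested genes), 9 were at least 2-fold lower, and their median difference there was 0.18. Of the 111 lower genes, 18 were lower and 17 higher after flg22, with a median of -0.05. In 613 of the 784 genes (78.2%, against 39.7% of all tested genes) wlim2a-1 mock was the highest of the 4 columns. The rule that chose the 784 genes favours this order, so the share is a description only. The single locus AT2G01021 has no symbol and was marked as ribosomal RNA in the processing here. It made up 57.8% of the nuclear sum for wlim2a-1 mock and 67.8% of that for WT mock. Its share was 67.8% in wlim2a-1 flg22 but 29.2% in WT flg22. Its effect on the other values was examined only by scaling to the nuclear sum without it, which gave 771 higher and 112 lower genes. Without it the nuclear sums were 804507 FPKM in wlim2a-1 mock and 801707 FPKM in WT mock, and the upper quartiles of tested genes were 21.8 FPKM and 20.5 FPKM in the same order.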

How the data were processed

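RNA sequencing reads of the 12 samples were aligned to the TAIR10 genome with TopHat2 2.1.1 after FastQC 0.11.5, and Cufflinks, Cuffdiff 2.2.1 and limma were used, per the labels and the methods of the study. The deposited values are FPKM, which the authors gave as 1 column per condition with its 3 replicates combined. The methods name quartile normalization for Cuffdiff, and whether the deposited values carry it is not stated. The program that wrote the table and the depth per sample are not given in the sources used here. With no read counts, no interval or floor could be set. Library kits named in the sources differ. FPKM divides by transcript length, and a few dominant loci or long genes can move the other values.

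Nuclear loci with FPKM of at least 1 in either mock column were compared as log2 of the ratio of FPKM + 1 (pseudocount 1), with calls at 2-fold (Python 3.11.15, pandas 2.3.3, numpy 2.4.6, figures with matplotlib 3.10.9). Symbols and gene lengths came from RefSeq TAIR10.1, and 18745 of the 18796 tested loci matched. Of 548 listed loci, 10 whose symbol RefSeq does not give were left out. The members and lists were chosen with earlier results of these data known, and the resistance, starch, copper and nicotianamine lists and some families after these values were seen. Named were the LIM family, the 20 largest rises and 20 largest falls above 0 in both columns with at least 10 FPKM in the higher one, the 10 most abundant higher and lower genes, called and extreme list members, and the highest genes listed at 0. The 12 alternatives tried are given in the closing section.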

Additional observations from a re-analysis of the deposited data

Results flagged for a closer look

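Organelle-encoded loci lay outside the nuclear comparison and differed between the mock columns. The 81 chloroplast-encoded genes with at least 1 FPKM had a median log2 difference of 2.046 (wlim2a-1 mock over WT mock), with 65 at least 2-fold higher and 5 lower, and their median in the flg22 pair was 0.46. The 56 mitochondria-encoded genes had a median of 0.5188, with 17 higher and 2 lower, and 0.09 in the flg22 pair. Their link to the nuclear differences was not tested.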

How the results depend on the processing

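The count of higher genes, 784, became 345 with a pseudocount of 5, 2320 at 1.5-fold and 143 at 4-fold. The count of lower genes, 111, became 261 with a pseudocount of 0.1, 51 with a pseudocount of 5, 871 at 1.5-fold and 29 at 4-fold. These changes follow from the settings' own construction. Under the other alternatives both counts stayed within 1.5 times, including centring on genes of like length, chosen after seeing the data. Scaling moved the share of higher genes among called genes between 82.0% and 91.4%, against 87.6%. No list median past the threshold and no called named gene changed sign, but 12 of the values given for list medians under the alternatives fell under the threshold, among them 3 for salicylic acid (0.56, 0.80 and 0.99) and 1 for jasmonate (0.83). With a pseudocount of 5, 36 called genes fell under the threshold. They came from 571 named or listed genes, which also held genes not called under the main setting. The 36 are therefore not a share of the calls. The salicylic acid count ranged from 9 to 16, the jasmonate count from 10 to 13 and the cold count from 9 to 13. No paired analysis was possible because the columns carry no replicates, so replicates could not be left out in turn either. Promoter motifs were not run, since no sequence of the genes was used here.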
